A study of Bos taurus with 48 samples.

Results

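The whole blood transcriptome of Jersey (J) calves was compared between d -14 and d 8 relative to weaning, that is, before the gradual withdrawal of milk replacer began and 8 days after it had ended. All 8 J bull calves were used, each paired with itself by the calf number in its label, which gave 16 of the 48 libraries of the series. The other libraries were those of the same J calves at d 1 and of 8 Holstein-Friesian (H-F) bull calves at d -14, d 1 and d 8. Calves of both breeds were kept in groups indoors and drank milk replacer and ate concentrate from automatic feeders. No calf stayed on milk replacer throughout, so weaning, the 22 days of growth between the samplings, the change of feed and any other influence of the sampling day cannot be told apart.

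The study's own analysis set aside a J calf that the labels do not identify, and the values below include all 8. Calf 85 was the J calf whose libraries lay farthest from those of the other J calves at d 1 and at d 8, with a mean root mean square distance of 0.608 at d 8, in log2 CPM (read counts scaled to library size), against 0.456 to 0.505 for the others. At d -14 its distance was 0.465, within the range of 0.442 to 0.473 of the other calves. The calls of DEG are therefore given with and without this calf. The 16 libraries held 29523316 to 35725456 counts, so that 1 CPM stood for 30.2 to 36 reads. The share of counts from the added spike-in RNAs was 0.212% ± 0.0406 (SD, n = 8) at d -14 and 0.231% ± 0.0486 at d 8, a difference of 0.0193 percentage points that did not pass an exact two-sided paired permutation test (p = 0.461, smallest possible 0.00781). Without calf 77 the difference was 0.0401 percentage points (exact permutation p = 0.0469).

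Whole blood RNA comes mostly from circulating leukocytes, with smaller amounts from platelets and immature red cells. A calf's blood changes as it ages: cells made before birth are replaced, adaptive immune cells accumulate, and the move from milk to solid feed alters the energy substrates that reach the tissues. Changes in blood mRNA after weaning have been followed as readouts of stress, because glucocorticoids alter both leukocyte numbers and the genes they transcribe. The libraries held markers of several blood lineages, with mean levels at d -14 of 357 CPM for the B cell antigen MS4A1, 199 CPM for the platelet chemokine PF4 and 183 CPM for the Fc receptor FCGR3A. T cell markers were not matched to identifiers here.

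From d -14 to d 8, 42 of 12717 genes tested were differentially expressed genes (DEG) in J calves, 16 transcriptionally increased and 26 transcriptionally decreased. To be called, a gene needed a fold change of 1.5 or more in either direction and an adjusted p below 0.1 (Benjamini-Hochberg) in edgeR's quasi-likelihood test, with calf as a block. These were 0.33% of the genes tested, 0.126% for increases and 0.204% for decreases. With the fold-change threshold removed 85 genes passed (0.668%), 38 increased (0.299%) and 47 decreased (0.37%). The largest changes were decreases. The median log2 fold change was -0.99 over the 26 decreased genes and 0.85 over the 16 increased genes, both past the fold threshold by selection. Over all genes tested it was 0.0014. All 8 genes that changed more than 4-fold were decreased. Most of these 8 had medians under 1 CPM at d 8, down to 0.0139 CPM, so that their fold changes rest on few reads there. The low-count filter kept them through libraries in which they were higher. In bulk blood RNA, fewer cells of a type and less RNA per cell cannot be told apart, and this holds for each gene below. The smallest absolute log2 fold change among the DEG was 0.60 and the largest below the fold threshold was 0.57.

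The number of DEG rested on comparing each calf with itself. Without the calf block the same test called 0 genes, with 374 at an unadjusted p under 0.05 against 1521 (12% of genes tested) with the block, and the edgeR exact test without the block called 7. Without calf 85, 26 DEG remained, 6 increased and 20 decreased, of which 25 were among the 42. Of the 17 lost, 10 were increases. Across the 8 fits that left out 1 J calf, 19 of the 42 were called in every fit that tested them, 5 increased and 14 decreased. Of these 14, 1 was below the low-count filter without calf 57 and was not tested in that fit.

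As a description of the DEG that the paired test selected, the level at d 8 lay on the same side of the level at d -14 in all 8 calves for 24 DEG and in 7 calves for a further 14, while such agreement in all 8 calves was found for 1.56% of all genes tested. Calf 60 showed the group's direction at all 42 DEG and calf 9, the lowest, at 36. The spread between calves was wide: for none of the 42 did the 8 values at d 8 separate completely from the 8 at d -14, which happened for 0.00786% of all genes.

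**Figure D1:**
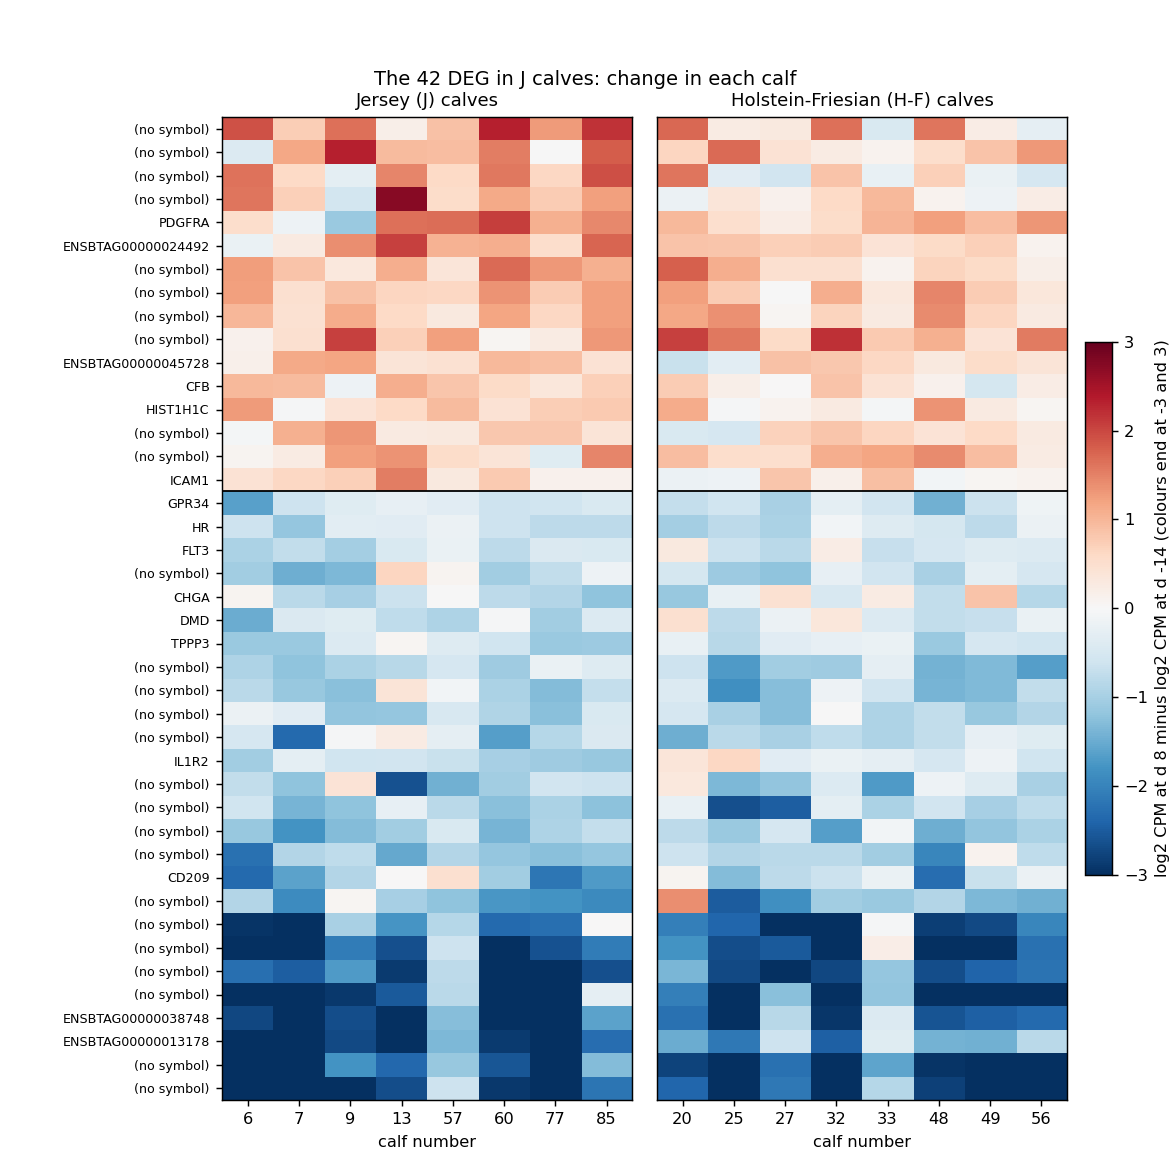
Heat map of the change from d -14 to d 8, as the difference in log2 CPM, for the 42 DEG of J calves (rows, ordered by log2 fold change, with a line between increases and decreases) in each of 8 J and 8 H-F calves (columns). Red is higher and blue lower at d 8. The lowest 8 rows fell more than 4-fold in the J fit, and calf 57 has the palest blue in most of them.

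Symbols could be attached to 12 of the 42 DEG. Among the decreased genes were 4 cell-surface receptors of immune cells. IL1R2, the decoy receptor that binds interleukin-1 without signalling, had a lowest, median and highest level of 1.42, 2.92 and 5.64 CPM at d -14 and of 0.833, 1.60 and 4.41 CPM at d 8. The groups overlapped, but IL1R2 was lower at d 8 in 8 of 8 calves, with a log2 fold change of -0.80 ± 0.15 (SE, adjusted p = 0.00757). Without calf 85 it was -0.76 (adjusted p = 0.0422). FLT3, the receptor tyrosine kinase of haematopoietic progenitors and dendritic cells, went from 4.83, 6.15 and 8.02 CPM to 2.80, 3.95 and 5.59 CPM. It too was lower in 8 of 8 calves, with a log2 fold change of -0.63 ± 0.12 (adjusted p = 0.00641), and it remained a DEG without calf 85 at -0.66 (adjusted p = 0.0188). It was not a DEG without calf 6 or without calf 9. Without calf 9 its adjusted p was 0.0392, but its log2 fold change of -0.58 fell short of the fold threshold.

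CD209, a C-type lectin of dendritic cells and macrophages, fell most among the genes with a symbol. Its levels were 0.497, 1.80 and 2.81 CPM at d -14 and 0.411, 0.588 and 1.06 CPM at d 8, with a log2 fold change of -1.33 ± 0.30 (adjusted p = 0.0361). The 2 calves with the lowest levels at d -14, 13 and 57, had 0.587 and 0.497 CPM then and 0.592 and 0.717 CPM at d 8, and the other 6 calves were lower at d 8. Without calf 85 the log2 fold change was -1.25 and CD209 was no longer a DEG (adjusted p = 0.118), and it was not one without calf 6 either. GPR34, a lysophospholipid receptor of the G protein-coupled family, was lower at d 8 in 8 of 8 calves. Its levels went from 1.76, 4.17 and 6.43 CPM to 1.39, 2.54 and 4.2 CPM, a log2 fold change of -0.60 ± 0.15 (adjusted p = 0.0789). It was not a DEG without calf 85 (adjusted p = 0.134), nor without calf 6, 7, 9, 57 or 60.

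The other decreased genes with a symbol act inside the cell or are secreted. TPPP3, a tubulin polymerisation promoting protein, had levels of 25.8, 59.2 and 84.4 CPM at d -14 and of 22, 35.3 and 46.2 CPM at d 8. The log2 fold change was -0.74 ± 0.13 (adjusted p = 0.00157). It was lower in 7 of 8 calves, calf 13 being the exception at 25.8 and 26.8 CPM, and it remained a DEG whichever J calf was left out. HR, the hairless transcriptional corepressor, went from 8.30, 10.9 and 13 CPM to 3.67, 7.08 and 10.8 CPM and was lower in 8 of 8 calves. Its log2 fold change of -0.60 ± 0.099 (adjusted p = 0.00135) lay close to the fold threshold. Without calf 85 it was -0.57 (adjusted p = 0.00677), below that threshold, and HR was likewise not a DEG without calf 7 or calf 77.

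DMD, which encodes the cytoskeletal protein dystrophin, was lower in 8 of 8 calves. Levels were 1.03, 1.42 and 2.22 CPM at d -14 and 0.648, 0.801 and 1.46 CPM at d 8, a log2 fold change of -0.72 ± 0.18 (adjusted p = 0.0709). DMD was not a DEG without calf 6, 9, 57 or 77. CHGA, the secretory granule protein chromogranin A, went from 0.148, 2.31 and 3.83 CPM to 0.0298, 1.28 and 2.42 CPM, a log2 fold change of -0.67 ± 0.18 (adjusted p = 0.0977). The lowest value at each day was that of calf 85, and without this calf CHGA had a log2 fold change of -0.65 and did not pass (adjusted p = 0.123), nor did it without calf 7, 9, 13, 60 or 77.

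**Figure D2:**
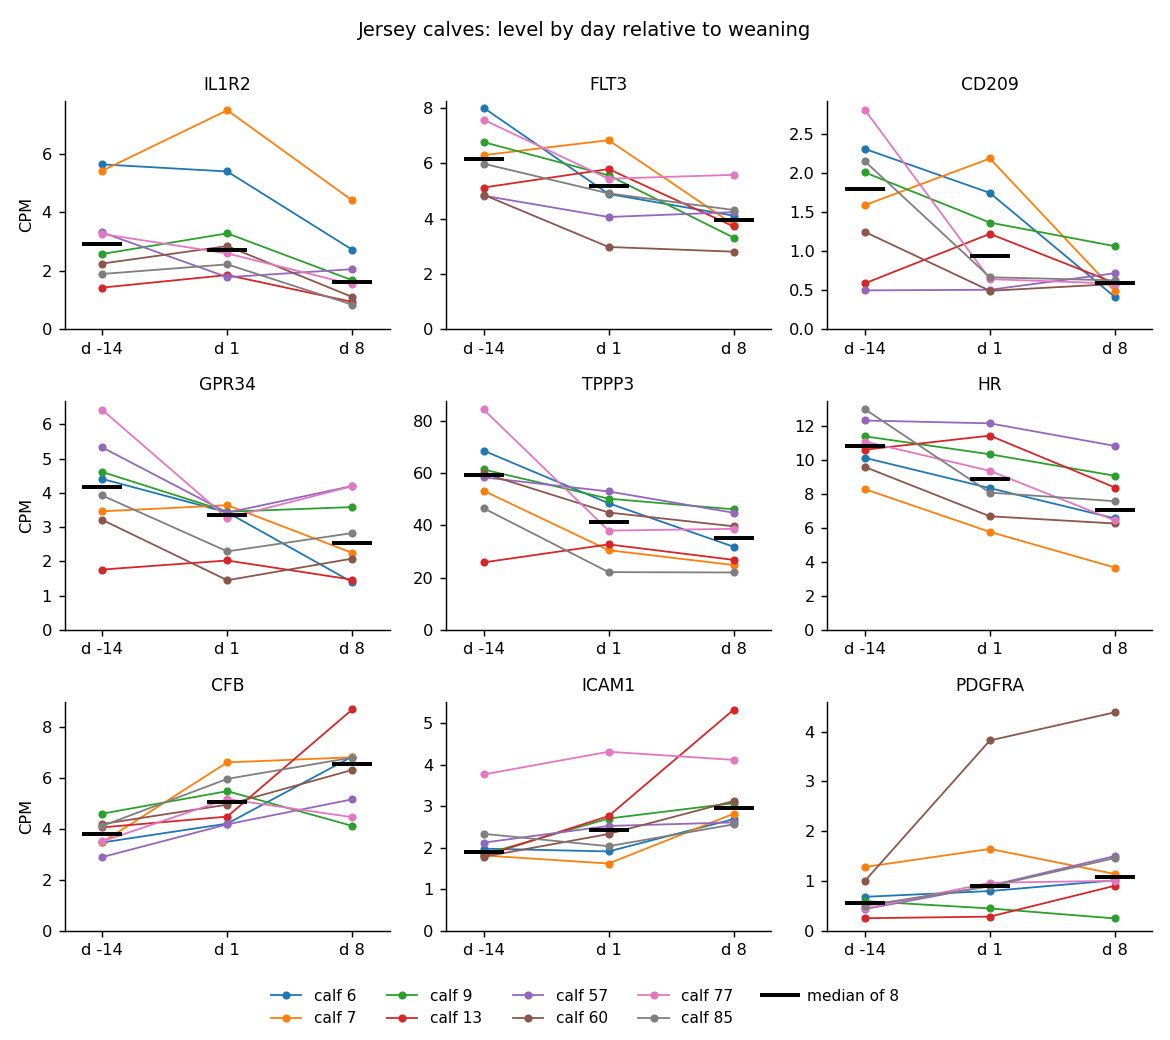
Level in CPM (vertical axes, starting at 0) of 6 decreased and 3 increased DEG at d -14, d 1 and d 8 (horizontal axes). Each line is 1 of the 8 J calves and each black bar the median of the 8. IL1R2 has medians of 2.92 CPM at d -14 and 2.72 CPM at d 1, and 1.60 CPM at d 8.

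The 4 increased DEG with a symbol are known from complement, adhesion, growth factor signalling and chromatin. CFB, complement factor B of the alternative pathway, had levels of 2.88, 3.77 and 4.58 CPM at d -14 and of 4.10, 6.54 and 8.68 CPM at d 8. It was higher in 7 of 8 calves, all but calf 9, with a log2 fold change of 0.69 ± 0.16 (adjusted p = 0.0419). ICAM1, the adhesion molecule that leukocyte integrins bind, was higher in 8 of 8 calves. Levels went from 1.78, 1.90 and 3.76 CPM to 2.56, 2.94 and 5.32 CPM, a log2 fold change of 0.60 ± 0.16 (adjusted p = 0.0928). The highest values were those of calf 77 at d -14 and calf 13 at d 8. PDGFRA, a platelet-derived growth factor receptor of mesenchymal cells, went from 0.247, 0.547 and 1.28 CPM to 0.243, 1.07 and 4.39 CPM. It was higher in 6 of 8 calves, with a log2 fold change of 1.05 ± 0.27 (adjusted p = 0.0877), and calf 60 stood apart at d 8, the next calf being at 1.5 CPM. HIST1H1C, a linker histone H1 gene, went from 6.10, 9.76 and 13.5 CPM to 10.2, 13.7 and 32.8 CPM, a log2 fold change of 0.67 ± 0.17 (adjusted p = 0.0919), with calf 6 highest at both days and the change upwards in 7 of 8 calves.

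None of these 4 increases passed without calf 85, where the adjusted p was 0.118 for CFB, 0.114 for ICAM1, 0.27 for PDGFRA and 0.248 for HIST1H1C. Their log2 fold changes without it were 0.68, 0.66, 0.98 and 0.64. They were also lost without calf 57 and without calf 60. CFB was lost in addition without calf 7 or 13, PDGFRA without calf 13, HIST1H1C without calf 6 or 9, and ICAM1 without calf 6, 7, 9 or 13. PDGFRA, HIST1H1C, ICAM1 and CHGA, all with adjusted p above 0.08, also lost the call in some fits that left out an H-F calf, 3 to 6 of the 8 such fits per gene. Of the 8 decreases with a symbol, TPPP3, FLT3, IL1R2 and DMD remained DEG without calf 85.

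The remaining 30 DEG, 12 increased and 18 decreased, had no symbol in the sources used here. All 8 genes that fell more than 4-fold were among them. Their log2 fold changes lay between -3.20 and -2.24, with adjusted p between 9.52e-08 and 0.00449, and their median levels ran from 0.698 to 565 CPM at d -14 and from 0.0139 to 73.4 CPM at d 8. The decline was present in 8 of 8 calves for 7 of the 8 genes. The decrease with the smallest p was ENSBTAG00000013178, at 5.87, 22.4 and 137 CPM at d -14 and 1.16, 2.37 and 54.1 CPM at d 8, a log2 fold change of -2.72 ± 0.26 (adjusted p = 9.52e-08). ENSBTAG00000038748 was the most abundant DEG, at 118, 565 and 2671 CPM at d -14 and 39, 73.4 and 1093 CPM at d 8, a log2 fold change of -2.66 ± 0.31 (adjusted p = 4.07e-06). Both were lower in 8 of 8 calves and remained DEG whichever J calf was left out.

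Calf 57 set the upper end of these genes. It had the highest level of all 8 J calves for each of the 8 genes at d -14, at d 1 and at d 8. For ENSBTAG00000038748 the next highest calf was at 760 CPM at d -14 and at 83.7 CPM at d 8, so that calf 57 at d 8 was above every other calf at d -14. Calf 85 had the lowest levels of both named genes on every day. Without calf 57 the log2 fold changes were -3.02 for ENSBTAG00000013178 and -2.87 for ENSBTAG00000038748.

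**Figure D3:**
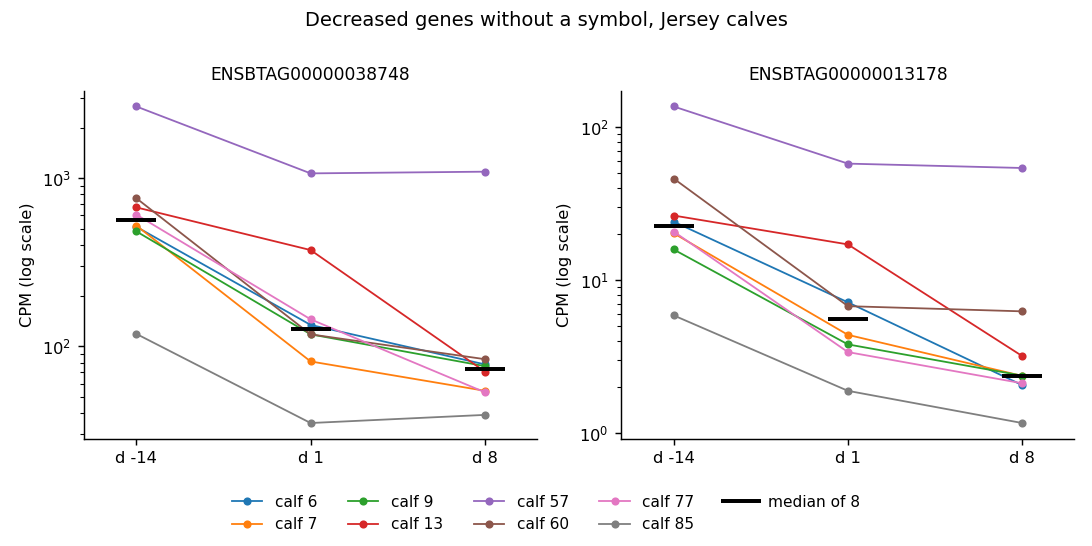
Level in CPM (log axis) of the decreased genes ENSBTAG00000038748 and ENSBTAG00000013178 at d -14, d 1 and d 8 in 8 J calves, 1 line per calf, with black bars at the medians. All lines are lower at d 8 than at d -14, from a median of 565 to 73.4 CPM and from 22.4 to 2.37 CPM. Calf 57 is highest and calf 85 lowest on each day.

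The increased genes without a symbol reached a log2 fold change of 1.42. ENSBTAG00000024492 had the smallest p of these, at 3, 4.28 and 7.17 CPM at d -14 and 4.83, 8.41 and 24.3 CPM at d 8. Its log2 fold change was 1.00 ± 0.19 (adjusted p = 0.00596), and 0.87 without calf 85 (adjusted p = 0.0525), the calf that held the highest value at d 8. ENSBTAG00000045728 was higher in 8 of 8 calves, going from 6.92, 14.6 and 19.2 CPM to 15.7, 22.6 and 31.3 CPM, a log2 fold change of 0.70 ± 0.14 (adjusted p = 0.0100). Both were called in every fit that left out 1 J calf. When only the 16 J libraries of d -14 and d 8 were fitted, 22 DEG were called. Of these, 19 were also DEG in the fit of all libraries. A further 8 DEG of the fit of all libraries did not pass the low-count filter in these 16 libraries and were not tested here. They included CD209, PDGFRA and several of the genes that fell more than 4-fold. ENSBTAG00000024492 was tested and did not pass (adjusted p = 0.109), nor did ICAM1 (0.206), DMD (0.135), GPR34 (0.117) or CHGA (0.148).

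The samples of d 1, taken 1 day after the last milk replacer, place part of these changes in time. From d -14 to d 1, 72 genes (0.566% of those tested) were DEG, 55 increased (0.432%) and 17 decreased (0.134%), and 20 of the 42 DEG of d 8 were also DEG at d 1. This count shares the d -14 libraries with the main comparison, and the d 1 values are set beside the d 8 values here only as levels. At d 1 the median log2 fold change was -0.61 over the 26 genes decreased at d 8 and 0.61 over the 16 increased ones. Median levels of ENSBTAG00000038748 went from 565 CPM at d -14 to 126 CPM at d 1 and 73.4 CPM at d 8. The number of DEG at d 1 was unsteady. It was 160 without J calf 6 and 151 without J calf 77, but 14, 4, 19 and 7 without J calves 7, 9, 57 and 85, 30 without H-F calf 27, and 16 to 18 without H-F calf 32, 33, 48, 49 or 56. Without the calf block it was 0, with either edgeR test.

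IL1R2 followed another course. Its lowest, median and highest levels at d 1 were 1.78, 2.72 and 7.5 CPM, with a log2 fold change from d -14 of 0.06 (adjusted p = 0.808). From d 1 to d 8 it was the only DEG (0.00786% of genes tested), with a log2 fold change of -0.86 ± 0.15 (adjusted p = 0.0375), and it was lower at d 8 than at d 1 in all calves but calf 57. With 1 J calf left out the log2 fold change lay between -1 and -0.795, and IL1R2 still passed when calf 57 was left out. It did not pass when any of the other 7 was, where 0 genes were called in this comparison and 285 to 883 had an unadjusted p under 0.05. DESeq2 called 1 gene here, and limma-voom and both fits without the calf block called 0.

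The H-F calves were other animals, sampled on the same days relative to weaning. Per the study they came from different herds and were younger on average at enrolment. Before weaning they were offered a limited amount of concentrate and J calves an unlimited one, though the study states that the H-F calves did not eat their full allowance. Breed therefore cannot be told apart from herd, age or the feed offered. Both breeds were fitted together, with a shared filter and estimate of the spread, so their calls are not fully independent. From d -14 to d 8 they had 137 DEG (1.08% of genes tested), 79 increased (0.621%) and 58 decreased (0.456%). Leaving out H-F calf 25 gave 90, and H-F calf 48 gave 87. All 42 J DEG had a log2 fold change of the same sign in H-F calves, with a median of -0.91 over the 26 J decreases and 0.65 over the 16 J increases, against 0.00039 over all genes. The share of all genes with the same sign in both breeds was not counted. Of the 42, 29 were DEG in the same direction in H-F, 21 decreases and 8 increases, and 0 were DEG in the opposite direction. These 29 make up 69.0% of the J list and 21.2% of the H-F list. Among them were all 8 genes that fell more than 4-fold, with H-F log2 fold changes between -4.08 and -1.40.

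Genes with a symbol had H-F changes from near the J value to near 0. HR had a log2 fold change of -0.59 ± 0.10 in H-F (adjusted p = 0.000679), GPR34 of -0.69 ± 0.15 (0.00433), CD209 of -0.70 ± 0.25 (0.0843) and PDGFRA of 0.86 ± 0.21 (0.0135). TPPP3 and FLT3 were also among the 11.9% of genes that passed the test in H-F at any fold change, at -0.51 ± 0.12 (0.0120) and -0.38 ± 0.12 (0.0465). For CFB, HIST1H1C, ICAM1, IL1R2, DMD and CHGA the H-F adjusted p was between 0.161 and 0.711. IL1R2 had a log2 fold change of -0.14 ± 0.13 in H-F, and its median level there was 8.22 CPM at d -14 and 7.25 CPM at d 8, above the J medians.

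**Figure D4:**
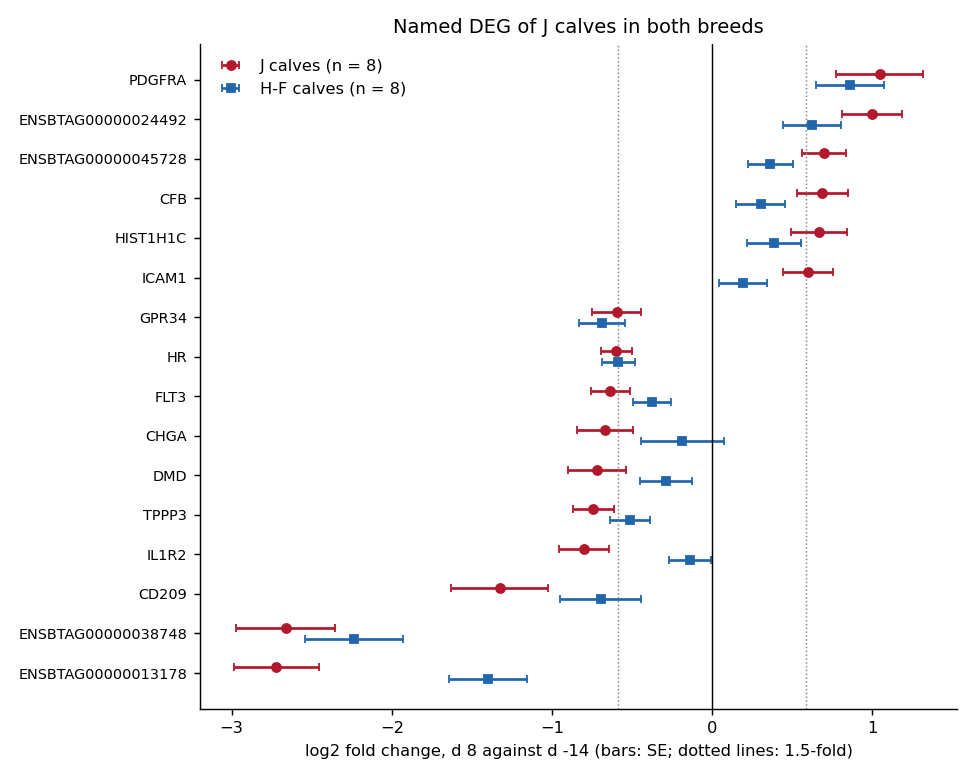
Log2 fold change from d -14 to d 8 (horizontal axis, bars are SE) of the 16 named DEG in J calves (circles) and H-F calves (squares), 8 calves each. Dotted lines mark a 1.5-fold change. Each gene lies on the same side of 0 in both breeds, and IL1R2 is at -0.80 in J and -0.14 in H-F.

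These contrasts between breeds were tested directly. Of the 42 J DEG, 0 had a change that differed between the breeds after adjustment by edgeR's quasi-likelihood test, and 5 had an unadjusted p under 0.05. IL1R2 was among the latter, with a difference of -0.66 in log2 fold change (unadjusted p = 0.00236, adjusted p = 0.379). Over all genes 1 passed (0.00786%), with 1098 (8.63%) at an unadjusted p under 0.05. That gene, named after its values were seen, was TAC3, which encodes the neurokinin B precursor. TAC3 had a lowest, median and highest level of 11.9, 41.1 and 60.1 CPM at d -14 and of 10.3, 39.4 and 54.9 CPM at d 8 in J calves, a log2 fold change of -0.16 ± 0.20. In H-F calves the levels went from 7.83, 29.3 and 50.2 CPM to 22.8, 70.9 and 130 CPM, a log2 fold change of 1.42 ± 0.20, upwards in 8 of 8 calves. The difference was -1.58 ± 0.28 (adjusted p = 0.0407). The adjusted p was 0.183 without J calf 13, and between 0.1 and 0.232 without H-F calf 25, 48, 49 or 56, and 0 genes passed in those 5 fits. The other 11 leave-outs called 1 to 16 genes, the most without H-F calf 20, and DESeq2 called 25.

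Marker lists of blood cell types and of pathways were examined next, with 22 lists in all. Identifiers could be attached only to genes listed by the study as different between breeds, so that 87 list members were tested, 3 lists had none, and the lists are partial. Over all lists 4 members were DEG, namely FLT3, IL1R2, ICAM1 and CFB, against 0.33% of all genes and 1.71% of the 701 genes that carried a symbol.

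Of the lists of cell type markers, only that of dendritic cells held a member that passed, FLT3. Its other members, CD1A, CLEC10A and SIRPB1, had log2 fold changes of -0.46, 0.47 and 0.07, and the median of the 4 was -0.20. All 3 members of the monocyte and macrophage list were below 0 (CLEC7A -0.42, MSR1 -0.32 and FCN2 -0.13) and 0 passed, the lowest adjusted p being 0.147. The gene labelled FCN2 stands for the list's FCN1, to which it was matched through an alias. FCN2 was at -0.07 without calf 13, and CLEC7A at -0.50 without calf 77 (adjusted p = 0.0598). The 8 B cell and plasma cell genes had a median log2 fold change of 0.08, with 0 passing. MS4A1 was at 0.15 and CD22, an inhibitory receptor of B cells, at 0.16, and they were at 0.09 and 0.10 without calf 85. In H-F calves the median of this list was 0.36 and 5 of 8 passed as increases (5.11% of all genes did), but 0 of 8 differed between breeds in the direct test. The summed level of the 8 genes was 886 to 1492 CPM at d -14 and 952 to 1882 CPM at d 8 in J calves.

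The 11 platelet and megakaryocyte genes had a median of -0.13 with 0 passing. F2RL2, a protease-activated receptor, was lower at d 8 in 8 of 8 calves with a log2 fold change of -0.41 (adjusted p = 0.276), MYL9 was at -0.26 (-0.16 without calf 85) and P2RX1 at 0.31. Their summed level was 201 to 525 CPM at d -14 and 169 to 586 CPM at d 8. Natural killer and cytotoxic genes had a median of -0.03 over 7 tested (GZMB 0.50, GZMA -0.20, NCR1 -0.12), neutrophil genes of 0.16 over 4 (FCGR3A 0.32, CXCR2 0.30, MPO -0.48), and eosinophil, basophil and mast cell genes of -0.12 over 6 (KIT -0.22, PRG3 -0.76, SIGLEC8 0.17), with 0 passing in each. Several of these values moved with single calves. With 1 calf left out, FCGR3A was between 0.10 and 0.45, MPO between -0.81 and -0.30, GZMA between -0.33 and -0.12, NCR1 between -0.18 and -0.02 and SIGLEC8 between 0.03 and 0.27. The lowest values of FCGR3A and MPO were those without calves 13 and 57, and GZMA was nearest to 0 without calf 85. PRG3 was at -1.44 without calf 57 (adjusted p = 0.0914). The erythroid list could be followed only through SELENBP1, at -0.50 (adjusted p = 0.468). It was at -0.10 without calf 85, in which it went from 4.54 to 0.684 CPM, and it was higher at d 8 in 5 of 8 calves.

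The 13 interferon-stimulated genes, which cells transcribe in response to type I interferon and whose products restrict viruses, all had a log2 fold change above 0 in J calves, against 50.6% of all genes. Their median was 0.26, and none passed: the lowest adjusted p was 0.28, and 3 of the 13 had an unadjusted p under 0.05. The 3 genes with the smallest p were IFIT3 at 0.51, which was higher in 8 of 8 calves, RSAD2 at 0.60 and OAS1X at 0.42. The calves did not move alike. At least 11 of the 13 genes were higher at d 8 in calves 6, 7, 9, 13, 57 and 77, whereas 1 of 13 was higher in calf 60 and 2 of 13 in calf 85, and the summed level in these 2 calves went from 967 to 727 CPM and from 887 to 673 CPM. The median was 0.48 without calf 85. In H-F calves 7 of the 13 were above 0, with a median of 0.00096 and 0 passing. From d -14 to d 1 in J calves, 12 of the 13 were above 0, with a median of 0.38. IFIT1 and IFIT3 were DEG there (adjusted p = 0.0978 and 0.0936), as were 0.566% of all genes tested. The number of DEG at d 1 was unsteady, as given above.

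**Figure D5:**
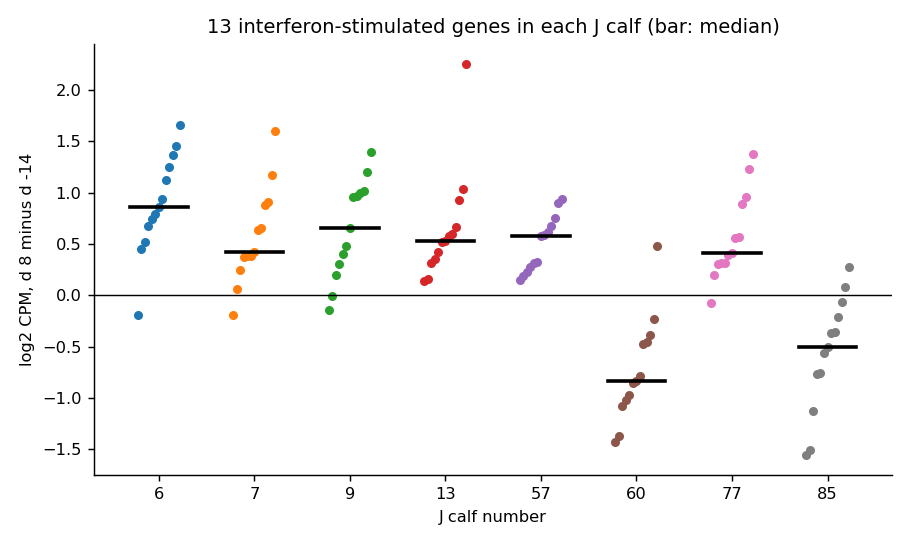
Change from d -14 to d 8, as the difference in log2 CPM, of 13 interferon-stimulated genes (points) in each of the 8 J calves (horizontal axis), with the median per calf as a bar. The median is between 0.41 and 0.858 in 6 calves, and is -0.834 in calf 60 and -0.506 in calf 85.

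Of the 9 inflammatory cytokine, chemokine and acute phase genes 1 passed, ICAM1, and the median was 0.19. The cytokine IL1B was at 0.19, PTX3, a soluble pattern recognition molecule, at 0.95 (adjusted p = 0.357), and PTGS2, the inducible cyclooxygenase, at -0.22. Of the 5 complement genes 1 passed, CFB, and the median was 0.16. C2, the classical pathway counterpart of CFB, was at 0.41 (adjusted p = 0.622) and the anaphylatoxin receptors C5AR1 and C3AR1 at 0.16 and -0.46. IL1R2 was the only glucocorticoid-responsive gene that could be followed.

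Lists on metabolism had 0 genes passing. The 5 genes of fatty acid use had a median of -0.10, with LPL, the lipoprotein lipase, at -0.51 (adjusted p = 0.151), CPT1B, the carnitine palmitoyltransferase of muscle type, at 0.31 (0.19 without calf 85) and VNN1 at -0.19 (-0.12 without calf 9). With 1 calf left out, LPL was a DEG only without calf 13, at -0.60 (adjusted p = 0.0987). Without calf 77, CPT1B was at 0.45 (adjusted p = 0.0705), short of the fold threshold. In sterol handling STARD4 was at 0.13 and ABCA1 at -0.03. MHC class II presentation had a median of -0.03 over BOLA-DOB, CIITA and CD83, and single members of the remaining lists were NLRP12 at 0.05, CDKN1A at -0.02 and ATF3 at 0.11, with MMP28 at 0.16 and LTBP4 at 0.21 for matrix and adhesion. LTBP4 ranged from 0.01 to 0.43 with 1 calf left out and was lowest without calf 13.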

How the data were processed

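Blood was collected into RNA-stabilising tubes, and 48 TruSeq libraries were made from total RNA with spike-in RNAs added. Per the labels, the authors checked reads with FastQC 0.10.0, aligned them with STAR to the bovine build UMD3.1 and counted them with HTSeq, and the deposited values are raw read counts per Ensembl gene, 24616 genes and 92 spike-ins. No source used here gives the strand setting.

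Spike-ins were removed and genes above 1 CPM in at least 8 of the 48 libraries were kept (12717). Counts were normalised by TMM and fitted in edgeR 4.0.16 (R 4.3.3) with an intercept per calf and day effects within breed, over all 48 libraries, which share 1 estimate of the spread. A call needed an adjusted p below 0.1 (Benjamini-Hochberg) in its quasi-likelihood test together with a 1.5-fold change. CPM values are per TMM-adjusted library size. Changes within a calf are on the log2 scale with a prior count of 2. Calf numbers pair the samples: deviations from the group means correlated at 0.425 to 0.746 between the d -14 and d 8 libraries of the same calf and at -0.418 to 0.262 between calves. Alternatives were limma 3.58.1 (voom) and DESeq2 1.42.0, each with the calf block, and other filters, scalings and sample sets.

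Symbols were taken from the identifiers and names, not the values, of the study's lists of genes that differed between breeds (701 genes). The reference table paired no symbols with these identifiers. Named were DEG with a symbol (up to 15 per direction by p), at most 2 identifiers per direction by p, and for each list the DEG or up to 3 members with the smallest p, with further members given for context. The value of 1 list member is not reported here. The comparison, the lists and the members were chosen with earlier results of these data known.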

Additional observations from a re-analysis of the deposited data

Results flagged for a closer look

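Values far from the rest of their group were looked for among the 16 named DEG, the spike-in share and the library total of J calves at d -14 and d 8, by the ratio of the gap between the extreme calf and its nearest neighbour to the whole range (limit 0.526 for 8 calves). Of 36 groups of 8 values, 11 exceeded the limit. The limit flags about 1 in 20 groups where values are independent and normally distributed. CPM values of genes measured in the same calves need not be so, and the 11 are a description only. Calf 57 accounted for 4 of them, with 2671 CPM at d -14 and 1093 CPM at d 8 for ENSBTAG00000038748 and 136.7 and 54.11 CPM for ENSBTAG00000013178. Calf 9 was the highest at d 8 for CD209 at 1.064 CPM and for DMD at 1.459 CPM. Calf 77 was the highest at d -14 for ICAM1 at 3.761 CPM and in spike-in share at 0.309%. At d 8, calf 85 was the highest for ENSBTAG00000024492 at 24.31 CPM, calf 6 for HIST1H1C at 32.83 CPM and calf 60 for PDGFRA at 4.393 CPM.

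The change from d -14 to d 8 differed between breeds by a direct test for TAC3, by -1.58 on the log2 scale (J minus H-F, adjusted p = 0.0407 by edgeR's quasi-likelihood test).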

How the results depend on the processing

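The number of DEG in J calves from d -14 to d 8 (42) was 0 with no replicate block, 7 with the edgeR exact test, 22 when only the 16 J libraries of these days were fitted, 74 with no filter on low counts, 68 with a mean count of at least 10 and 85 with no fold-change threshold. It ranged from 26 to 58 with 1 calf left out. The other scalings and tools, RLE and upper-quartile factors, DESeq2 (53) and limma-voom (50), kept it within 1.5 times, as did an adjusted p under 0.05 (28). RLE factors gave the same 42 genes and DESeq2 included them all. The median of all genes moved between -0.013 and 0.0052 over the alternatives. The 42 DEG kept their direction in every alternative in which they were tested.

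At d 1 against d -14 (72), there were 0 DEG without the block in either test, 119 with a mean count of at least 10, 111 with limma-voom, 731 with no fold threshold and 10 at an adjusted p under 0.05, and 4 to 160 with 1 calf left out. At d 8 against d 1 (1), there were 0 without the block in either test and 0 with limma-voom, and 0 to 1 with 1 calf left out. In H-F calves (137), there were 5 with no replicate block, 20 with the exact test, 278 with no filter and 1509 with no fold threshold, and 87 to 161 with 1 calf left out. Genes that differed between breeds (1) numbered 0 with no replicate block, 8 with upper-quartile factors and 25 with DESeq2, and 0 to 16 with 1 calf left out. The spike-in share difference of 0.0193 percentage points lay between 0.00493 and 0.0401 with 1 calf left out, the latter without calf 77 (exact permutation p = 0.0469). The cause of these shifts was not tested.

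Signs turned only for list members that did not pass and lay near 0. BOLA-DOB was at 0.00022 and 0.00025 without the block and CIITA at -0.0023 with upper-quartile factors. With 1 calf left out, NLRP12 ranged from -0.0491 to 0.101, CD83 from -0.217 to 0.0111, CIITA from -0.0429 to 0.0687, ABCA1 from -0.0694 to 0.0608, CDKN1A from -0.105 to 0.0539 and ATF3 from -0.0631 to 0.156. Depth limits genes near 1 CPM, such as CD209, DMD and PDGFRA, since 1 CPM is 30.2 to 36 reads. It also limits most of the genes that fell more than 4-fold, whose medians at d 8 were under 1 CPM.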
